A study of Mus musculus with 8 samples.

Results

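Glutathione transferases are described here across the distal ileum of Cftr null and wild-type mice, with and without antibiotics. The 10 genes are Gsta1, Gsta2, Gsta3 and Gsta4 of the alpha class, Gstm1, Gstm3 and Gstm6 of the mu class, Gstp1 of the pi class, Gsto1 of the omega class and Gstk1 of the kappa class. They were chosen by symbol with earlier results of these data known, so counts set against all genes or other transferases are a description. All 10 have a row among the 41128 genes of the deposited table. Each of 8 mice gave 1 RNA library from a piece of ileum taken less than 6 cm from the ileocecal valve. The 8 mice were 4 pairs of littermates, called couples, of a Cftr -/- mouse (KO, allele Cftrtm1Cam, congenic on FVB) and a Cftr N/N mouse of the same sex (WT). In the antibiotic couple (1 KO, 1 WT), ciprofloxacin at 0.3 g/L and metronidazole at 0.5 g/L were in the drinking water. The untreated couples 1, 2 and 3 gave 3 KO and 3 WT libraries, from females in couples 1 and 3 and males in couple 2. The antibiotic couple was labelled female. All mice, WT included, were kept on a low fiber diet with an osmotic laxative that was stopped more than 4 days before sampling. The labels give no age.

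Glutathione transferases join the thiol of glutathione to reactive, electron-seeking molecules such as drug metabolites, plant compounds and products of lipid peroxidation, which are then exported and excreted as mercapturates. In the small intestine they are made mainly in the absorptive epithelium, where they meet compounds from the diet and the microbiota. Many of their genes are induced through the transcription factor NRF2 and through the xenobiotic receptors CAR and PXR.

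The authors' values carry no named unit and were taken as RPKM-like, that is, scaled by library size and gene length. Levels of different genes are compared on that reading. They appeared to have been normalized in 3 sets (couples 1 and 2 together, couple 3, and the antibiotic couple), and the number of reads behind them is unknown. The sum of values per library was 346794 to 397082. In the WT antibiotic column, 423 genes had values that looked faulty, and 0 of the 10 transferases were among them. Of the 423, 376 shared a value with other genes and 45 were at 0 against at least 1 in the littermate. The last 2 were far below the littermate and the untreated libraries. Cftr, the disrupted gene, had 4.94 in the KO antibiotic library against 13.8 in its WT littermate, and 3.74, 2.65 and 3.17 in the untreated KO libraries of couples 1, 2 and 3 against 12.4, 9.94 and 10.1 in WT. The KO value was below that of the littermate in all 4 couples (untreated log2 change -1.50, SE 0.17, limma adjusted p = 0.00700). The 11 enterocyte markers, such as Vil1, Fabp1 and Sis, were above 0 in each library.

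Reads of some of these genes can be placed in more than 1 copy, which limits what a single row shows. Cut into all 50-base words, the Gsta1 transcript shares 90.5% of its words with other annotated genes, mainly the Gsta-like gene Gm3776 (75.7%) and Gsta2 (46.6%). Gsta2 shares 49.8%, Gstp1 33.7% (all with Gstp2), Gstm3 28.8%, Gstm1 18.9% and Gstm6 5.97%. Gsta3 shares 0.273%, and Gsta4, Gstk1 and Gsto1 share 0%. The coding sequences of Gsta1 and Gsta2 are 97.6% identical, while Gsta1 and Gsta3 are 74.2% and Gsta1 and Gsta4 66.6% identical. The first 120 coding bases, from the start codon (GENCODE vM21 transcripts, GRCm38), are shown because they make this visible. Capitals mark bases that differ from Gsta1 at the same position, 0 in Gsta2, 26 in Gsta3 and 36 in Gsta4.
Gsta1: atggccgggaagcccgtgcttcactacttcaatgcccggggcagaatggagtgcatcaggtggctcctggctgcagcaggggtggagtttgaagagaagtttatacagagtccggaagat
Gsta2: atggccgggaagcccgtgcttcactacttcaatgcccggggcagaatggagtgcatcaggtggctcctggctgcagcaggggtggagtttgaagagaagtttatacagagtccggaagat
Gsta3: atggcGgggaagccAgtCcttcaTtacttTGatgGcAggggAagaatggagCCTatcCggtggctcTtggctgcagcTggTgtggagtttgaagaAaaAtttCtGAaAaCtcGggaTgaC
Gsta4: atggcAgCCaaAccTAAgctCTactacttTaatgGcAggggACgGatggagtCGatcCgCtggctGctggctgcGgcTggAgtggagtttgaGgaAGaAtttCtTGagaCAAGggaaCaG
A read from this stretch cannot tell Gsta1 from Gsta2 but can tell both from Gsta3 and Gsta4. How the authors' counting treated reads that match several genes is not given in the sources used here, so the values of Gsta1 and Gsta2 are uncertain as single-gene values.

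In untreated WT ileum the level of the 10 genes ran from very high to barely detected. Gstp1, a broad-specificity enzyme of many epithelia, had the highest level of the 10 at 349.8 ± 82.0 (SD, n = 3), and stood 95th to 156th among the 11717 genes tested for genotype in the WT libraries. Gsto1, a thioltransferase that also reduces dehydroascorbate, had 121 ± 17.2, followed by Gstk1, an enzyme of mitochondria and peroxisomes, with 83.2 ± 16.6, Gsta1 with 74.3 ± 16.2 and Gstm3 with 66.6 ± 56.2. Gsta4, which detoxifies hydroxynonenal from lipid peroxidation, had 37.2 ± 5.47, and Gstm1, a major mu enzyme of liver, had 35.2 ± 4.61. Gsta3, Gstm6 and Gsta2 were lowest, with 4.57 ± 0.849, 4.50 ± 1.51 and 1.07 ± 1.42. In this order, the SD ranges of Gstk1, Gsta1, Gstm3, Gsta4 and Gstm1 overlap from each to the next, as do those of Gsta3 and Gstm6, so those neighbours did not differ beyond their spread. The Gsta2 row was listed at 0 in both libraries of couple 3, at 0.498 in KO and 0.528 in WT of couple 1, and at 3.77 in KO and 2.69 in WT of couple 2. It did not reach a value of 1 in 3 untreated libraries and was not tested for genotype. Couple 3 had 11931 genes above 0 in KO and 11912 in WT, against 20896 in each library of couples 1 and 2. A 0 in couple 3 therefore does not show absence.

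**Figure D1:**
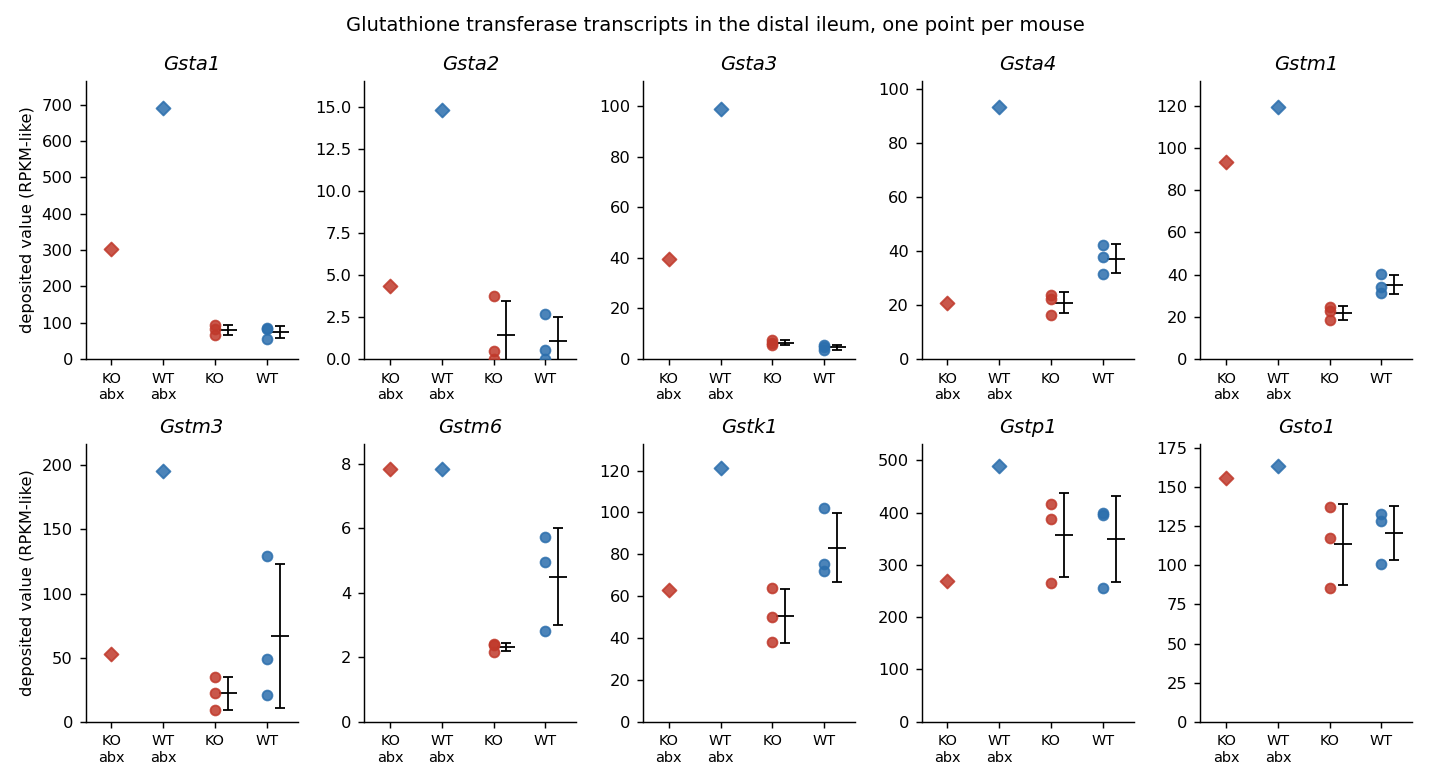
Deposited RPKM-like value (linear axis from 0) of each of the 10 genes, 1 point per mouse, for KO and WT mice on antibiotics (diamonds, 1 mouse each) and untreated KO and WT mice (circles, 3 mice each, with mean and SD). The antibiotic libraries of Gsta1 (303 in KO and 689.9 in WT) and Gsta3 (39.4 in KO and 99.0 in WT) lie far above the untreated ones.

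The largest differences that passed a test in these genes were those between the antibiotic couple and the untreated couples. Gsta1, Gsta3 and Gstm1 were higher with antibiotics in both genotypes, by 2.57, 3.31 and 1.90 on the log2 scale. They were 3 of the 13 genes called higher among 11911 tested (0.109%), and 0 of the 10 transferases were among the 5 genes called lower (0.042%) (limma on the 8 libraries, adjusted for genotype, adjusted p below 0.05). The antibiotic effect cannot be told apart from the couple, its litter and its separate normalization, since there was 1 treated couple. Reads came from an Illumina HiSeq and an Ion Proton, and the instrument of each library is not stated, so it may differ too. The fit also takes the treated littermates as independent mice, although littermates deviated together in the untreated couples, where couple 3 appeared normalized apart. Its SE, intervals and p-values may therefore be too small. All log2 changes are of value + 1, so those of low genes are understated.

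Gsta3, which in mice conjugates the epoxide of aflatoxin, had the largest difference of the 10 on the log2(value + 1) scale. With a pseudocount of 0.1 the low Gsta2 row was larger, at 3.79 against 3.51. Its value was 39.4 in the KO and 99.0 in the WT antibiotic library, against 6.37, 5.65 and 7.52 in untreated KO and 3.68, 5.37 and 4.65 in untreated WT libraries of couples 1, 2 and 3. Both antibiotic libraries lay above all 6 untreated ones, by 6.05-fold over the untreated mean in KO and 21.7-fold in WT. The log2 difference was 3.31 (SE 0.35, 95% confidence interval 2.51 to 4.10, adjusted p = 0.0229), the 16th highest of the 11911 genes. Gsta3 spans chromosome 1 from 21240589 to 21265661 (plus strand, GRCm38), away from the other alpha class genes.

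Gsta1, a detoxifying enzyme of liver and gut, had 303 in the KO and 689.9 in the WT antibiotic library, against 65.2, 93.3 and 83.4 in untreated KO and 84.8, 55.7 and 82.4 in untreated WT libraries. The KO antibiotic library was 3.76-fold and the WT antibiotic library 9.29-fold above its untreated mean, with no overlap. The log2 difference was 2.57 (SE 0.33, interval 1.82 to 3.32, adjusted p = 0.0358). In the WT antibiotic library Gsta1 ranked 48th among the 11717 genes, against 502nd to 805th in untreated WT. The related row Gm10639, which shares 31.3% of the Gsta1 words, was chosen for its shared sequence. It had 12.1 in the KO and 27.8 in the WT antibiotic library, against 2.09 to 7.86 in the untreated libraries (log2 difference 1.77, adjusted p = 0.131). Reads may count in both rows, so Gm10639 is not independent of Gsta1. Gm3776 shares more of the Gsta1 words (75.7%), and its values are not given here. Gsta1 lies on chromosome 9 from 78230656 to 78242684 (plus strand), between Gsta4 (78182774 to 78209349, plus strand) and Gsta2 (78331018 to 78355788, minus strand).

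Gstm1 had 93.5 in the KO and 119 in the WT antibiotic library, against 18.4, 24.7 and 22.7 in untreated KO and 34.3, 31.1 and 40.2 in untreated WT libraries. Here the fold over the untreated mean was 4.26 in KO and 3.38 in WT, so the KO fold was the larger one, unlike for Gsta1 and Gsta3 (the difference between genotypes is tested further on). The log2 difference was 1.90 (SE 0.18, interval 1.47 to 2.32, adjusted p = 0.0216).

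The other 7 genes did not pass the test. Gsta2 had 4.34 in the KO and 14.8 in the WT antibiotic library, both above its untreated maximum of 3.77 (log2 difference 2.31, SE 0.69, adjusted p = 0.151). Gstm6, a mu class relative, had 7.85 in both antibiotic libraries against 2.17 to 5.71 untreated (1.07, SE 0.24, adjusted p = 0.111). Gsto1 had 156 in the KO and 164 in the WT antibiotic library against 85.7 to 137 untreated (0.46, adjusted p = 0.303). With Gsta1, Gsta3 and Gstm1 these made 6 of 10 genes with both antibiotic libraries above all 6 untreated ones, against 3.78% of all genes tested, and 0 of 10 below them all, against 17.1%. Gsta2 passed the filter of 1 in 3 libraries only through the antibiotic libraries, where it was high. Its place in this count and in the median given below is therefore not independent of them. Gstm3 had 52.9 in the KO and 195 in the WT antibiotic library, the KO value inside and the WT value above its wide untreated range of 8.92 to 129 (1.65, SE 0.66, adjusted p = 0.226). Gsta4 differed by 0.66 (adjusted p = 0.262), a value set by the WT antibiotic library, since it was 0.0093 without that library and 1.31 without the KO one. Gstk1 differed by 0.45 (adjusted p = 0.333). For Gstp1 the difference was 0.07, with an interval of -0.68 to 0.81. The median over the 10 genes was 1.36, against -0.14 over all genes tested. With all libraries quantile normalized together the median of all genes was 0.01, a shift of the scale that left each of the 10 differences above 0 and the calls of Gsta1, Gsta3 and Gstm1 in place.

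The summed value of the 10 genes was 1008 in the KO and 1994 in the WT antibiotic library, against 507 to 773 in untreated KO and 731 to 845 in untreated WT libraries. The summed enterocyte markers were also highest in the antibiotic couple, at 31497 in KO and 27077 in WT, against 10082 to 17533 in untreated KO and 18324 to 25671 in untreated WT libraries. Of the 11 markers, 3 (Fabp1, Fabp2 and Apoa4, named after their values were seen) were above the untreated range in both antibiotic libraries. By limma 0 of 11 were called and 2 had an unadjusted p below 0.05 (median log2 difference 0.43). The part of the enterocyte share in the transferase levels was not tested, and in bulk tissue fewer cells of a type and less RNA per cell cannot be told apart. The 7 wider epithelial markers, such as Epcam and Cdh1, summed to 2780 in the KO and 3687 in the WT antibiotic library, against 3040 to 4843 in the untreated libraries, and 0 of 7 were called or had an unadjusted p below 0.05. The 7 Paneth cell markers summed to 4834 in the KO and 1903 in the WT antibiotic library, against 3822 to 12068 untreated, and 0 were called (6 at an unadjusted p below 0.05). Sums of the macrophage, smooth muscle, enteroendocrine and pancreas lists lay below the whole untreated range in both antibiotic libraries. Pancreas markers summed to 3.56 in the KO and 3.57 in the WT antibiotic library, against 4.17 to 36.1 untreated. Macrophage markers summed to 62.0 in the KO and 58.1 in the WT antibiotic library against 68.3 to 117 untreated, smooth muscle markers to 383 in KO and 387 in WT against 391.6 to 729, and enteroendocrine markers to 70.2 in KO and 86.1 in WT against 88.4 to 126. The part of these cells in the transferase levels was not tested either.

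The call of Gsta1 was lost in 7 of 14 alternative fits, that of Gsta3 in 3 and that of Gstm1 in 2. Leaving out WT of couple 1 ended all 3 calls (adjusted p = 0.0958 for Gsta1, 0.0527 for Gsta3 and 0.0527 for Gstm1), and leaving out KO of couple 2 ended those of Gsta1 (0.0749) and Gsta3 (0.0572). The call of Gsta1 also ended without KO of couple 1 (0.0711), WT of couple 3 (0.0889), KO of couple 3 (0.0805) or the WT antibiotic library (0.0515). With no filter on low values all 3 were lost (0.240, 0.240 and 0.102).

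**Figure D2:**
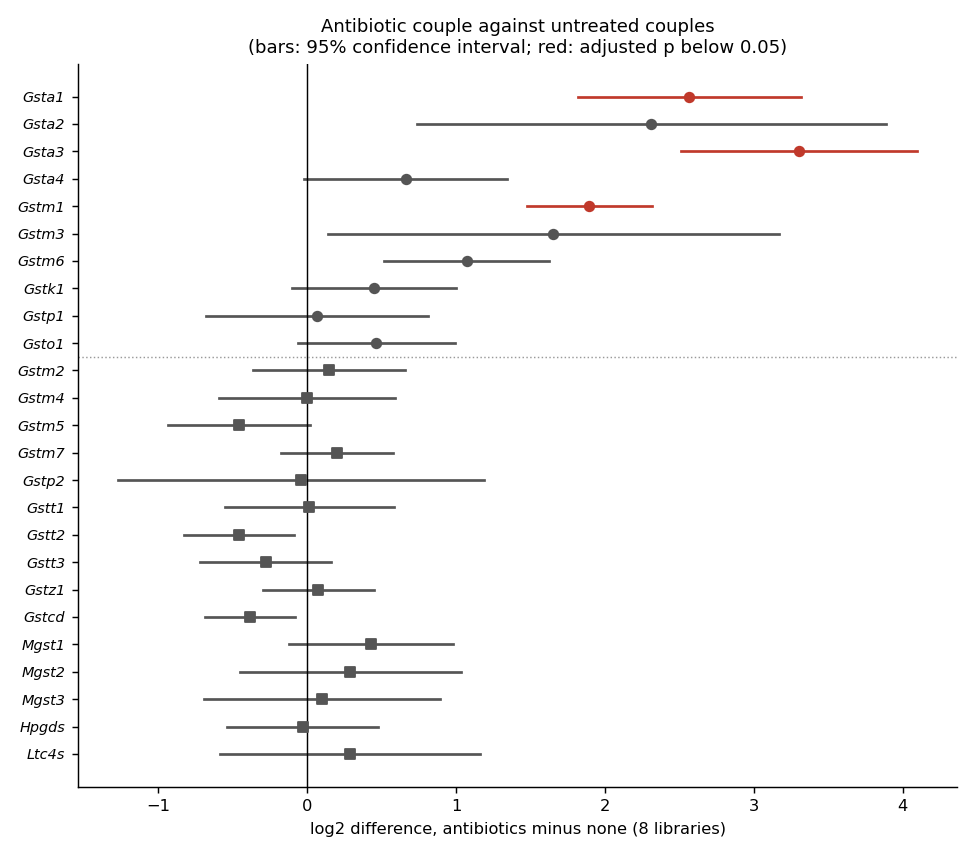
Log2 difference between antibiotic and untreated libraries on the log2(value + 1) scale (8 libraries, genotype in the model) for the 10 genes (circles, above the dotted line) and 15 other tested glutathione transferases (squares), with 95% confidence intervals; red marks an adjusted p below 0.05. Gsta1, Gsta3 and Gstm1 pass, at 2.57, 3.31 and 1.90, and the other 15 lie between -0.46 and 0.43.

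The promoters of the 3 genes called with antibiotics are shown because these genes were higher together. They are RefSeq windows on GRCm38.p6, from 250 bases before to 50 bases after the start site, read 5′ to 3′ on the gene's strand. Capitals mark matches, on either strand, to the core of the antioxidant response element bound by NRF2 (TGACNNNGC), the nuclear receptor half-site (AGGTCA) and the core of the xenobiotic response element bound by the aryl hydrocarbon receptor (GCGTG). All 3 windows are from different chromosomes, written as chr1:21240335-21240634 (plus strand) for Gsta3, chr9:78230419-78230718 (plus strand) for Gsta1 and chr3:108017924-108018223 (minus strand) for Gstm1, which has a second annotated start site.
Gsta3: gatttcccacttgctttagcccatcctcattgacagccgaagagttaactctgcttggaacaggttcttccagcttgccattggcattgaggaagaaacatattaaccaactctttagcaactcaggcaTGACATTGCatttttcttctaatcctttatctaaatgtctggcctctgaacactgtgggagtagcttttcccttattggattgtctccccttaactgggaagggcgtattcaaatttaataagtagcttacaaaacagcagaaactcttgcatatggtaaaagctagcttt
Gsta1: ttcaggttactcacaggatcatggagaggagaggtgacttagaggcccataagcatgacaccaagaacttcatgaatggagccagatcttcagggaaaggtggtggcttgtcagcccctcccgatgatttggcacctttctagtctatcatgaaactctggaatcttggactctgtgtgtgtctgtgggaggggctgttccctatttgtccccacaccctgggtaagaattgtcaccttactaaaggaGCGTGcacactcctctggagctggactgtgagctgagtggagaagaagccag
Gstm1: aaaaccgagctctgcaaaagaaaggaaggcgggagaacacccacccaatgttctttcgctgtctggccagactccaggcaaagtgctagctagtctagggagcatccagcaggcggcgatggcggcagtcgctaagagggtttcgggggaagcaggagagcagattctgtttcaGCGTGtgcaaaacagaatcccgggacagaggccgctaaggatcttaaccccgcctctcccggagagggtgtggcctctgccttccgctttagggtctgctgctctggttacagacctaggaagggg
The Gsta3 window holds 1 antioxidant response core, starting at -121 from the start site. The Gsta1 window holds 1 GCGTG match starting at -2, and the Gstm1 window 1 starting at -76. The window of the second Gstm1 start site, which is not shown, holds 1 GCGTG match at -231 and 1 AGGTCA match at -5. Of 32851 promoter windows of all genes, 12.4% hold TGACNNNGC, 16.3% AGGTCA and 32.4% GCGTG. Promoter windows were found for 9 of the 10 genes, and Gsta3 was the only gene of the 9 with TGACNNNGC in a window. A match describes the letters of this window and is not a site shown to be bound.

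Within the antibiotic couple, several alpha class genes were lower in the KO than in the WT mouse. With 1 library per genotype there is no test of this ratio. Gsta4 had 20.7 in KO against 93.2 in WT, a log2 ratio of -2.12. Gstm3 had 52.9 in KO against 195 in WT (-1.87), and the uncertain Gsta2 row had 4.34 against 14.8 (-1.57). For Gsta3 and Gsta1, whose values are given above, the log2 ratios were -1.31 and -1.19. These 5 of 10 genes had a log2 ratio of -1 or lower, against 1.70% of all genes tested, and 0 of 10 had a ratio of 1 or higher, against 4.45%. Gsta2 is in this count only because its antibiotic values let it pass the filter. The shares of all genes include rows with faulty values in the WT antibiotic column, which none of the 10 had. A row at 0 there with at least 1 in KO counts as higher, so part of the 4.45% can come from these faults. Gstk1 (63.0 in KO against 121 in WT, -0.93) and Gstp1 (268 in KO against 489.9 in WT, -0.87) were lower in KO by less. Gstm1, Gsto1 and Gstm6 had ratios of -0.35, -0.07 and 0.00. The summed enterocyte markers were higher in KO, at 31497 against 27077 in WT. The median log2 ratio of the 11 markers was 0, with 1 at 1 or higher and 0 at -1 or lower. The T cell markers summed to 42.5 in KO against 5.09 in WT, and the B and plasma cell markers to 146 in KO against 48.3 in WT. The part of these cells in the ratios was not tested.

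Without antibiotics, 0 of the 9 transferases tested were called higher or lower in KO, against 1.15% and 1.01% of 11717 genes (limma, 3 KO against 3 WT libraries, adjusted p below 0.05). At an unadjusted p below 0.05 there were 5 of 9, namely Gsta3, Gsta4, Gstm1, Gstm6 and Gstk1, against 1871 of all 11717 genes. With the couple as a replicate block, which the shared litters allow, Gsta4, Gstm1 and Gstk1 fell in KO and 0 rose, against 9.91% lower and 8.40% higher among all genes. The groups of 3 did not overlap for 5 genes, 4 lower (12.1% of all genes) and 1 higher (10.4%). All 3 couples gave the same sign for the same 5 genes, Gsta3 higher (28.1% of all genes) and Gsta4, Gstm1, Gstm6 and Gstk1 lower (32.5%). The median log2 change of the 9 genes was -0.66, against -0.01 over all genes tested.

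Gsta4 had 16.3, 23.7 and 22.3 in untreated KO, against 42.2, 31.4 and 37.9 in WT libraries of couples 1, 2 and 3. Each KO value lay below each WT value, and the log2 change was -0.82 (SE 0.20, adjusted p = 0.101, and 0.0484 with the block). Gstk1 had 37.9, 50.01 and 63.8 in KO, against 75.2, 72.1 and 102 in WT libraries. Its log2 change was -0.72 (SE 0.25, adjusted p = 0.208, and 0.0243 with the block, where SE was 0.11). Gstm1 had a log2 change of -0.66 (SE 0.18, adjusted p = 0.128, and 0.0364 with the block), from the untreated values given above. The block calls rest on all 3 couples. Without couple 1 or couple 3, 0 of the 9 genes were called with the block, and without couple 2 the 2 called were Gstm1 (0.0347) and Gstm6 (0.0367).

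Gstm6 had 2.17, 2.38 and 2.41 in KO, against 4.97, 2.81 and 5.71 in WT libraries (log2 change -0.69, SE 0.22, adjusted p = 0.186, and 0.0648 with the block). The groups did not overlap, though couple 2 differed little. Gsta3 was the only one of the 9 whose KO values, 6.37, 5.65 and 7.52, all lay above those of WT, 3.68, 5.37 and 4.65 (0.44, SE 0.18, adjusted p = 0.286, and 0.0948 with the block).

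Gstm3 had the widest span of within-couple log2 ratios of the 9 tested genes. It had 8.92, 35.0 and 22.6 in KO, against 129, 21.1 and 49.3 in WT libraries, so KO was lower in couples 1 and 3 and higher in couple 2 (log2 ratios -3.72, -1.09 and 0.70). The log2 change was -1.37 (SE 0.69, adjusted p = 0.386), and it was -0.20 without couple 1. The WT library of couple 1, which held the value of 129, also had the highest sum of 7 pancreas markers, at 36.1 against 4.17 to 7.20 in the other untreated libraries; 6 of the 7, all but Cela1, were at 0 in at least 1 library. Whether this bears on Gstm3 was not tested.

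For Gsta1, Gstp1 and Gsto1 the untreated genotypes overlapped. The log2 changes were 0.13 (95% confidence interval -0.43 to 0.69), 0.03 (-0.66 to 0.73) and -0.11 (-0.67 to 0.46), and with the block the interval of Gstp1 was -0.19 to 0.25. The signs of all 3 turned when single libraries were left out.

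**Figure D3:**
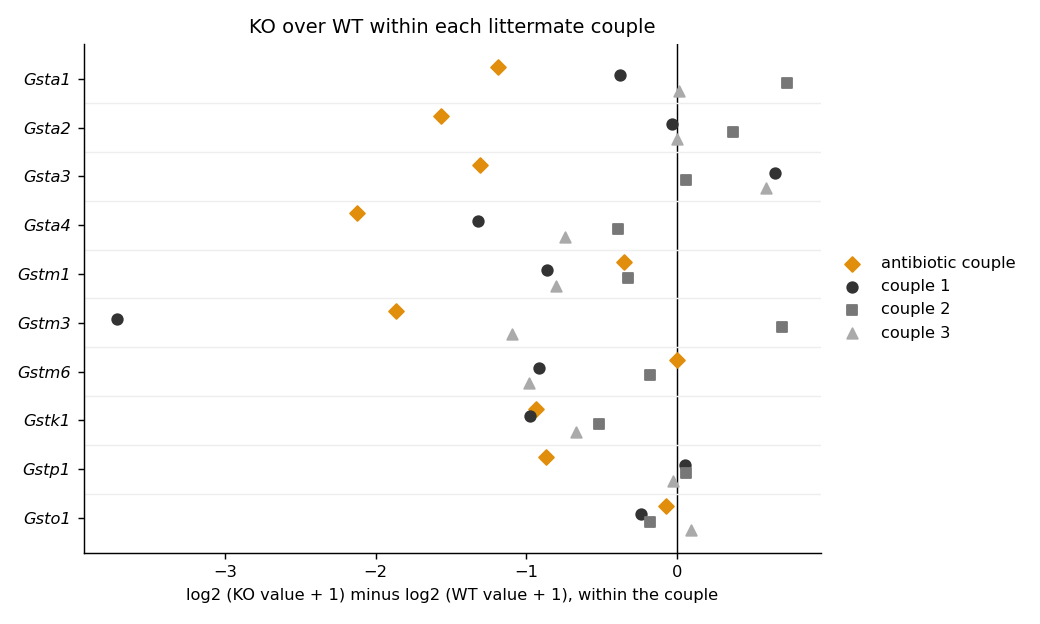
Within-couple difference log2(KO value + 1) minus log2(WT value + 1) for each of the 10 genes, with the antibiotic couple as a diamond and couples 1, 2 and 3 as a circle, a square and a triangle. Gsta4, Gstm1 and Gstk1 are below 0 in all 4 couples, while Gsta3 is above 0 in the 3 untreated couples and at -1.31 in the antibiotic couple.

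Cell type markers differed between the untreated genotypes as well. The summed enterocyte markers were 10082 to 17533 in KO against 18324 to 25671 in WT libraries, without overlap, and 6 of the 11 fell with the block, Vil1, Alpi and Fabp1 among them, and 0 without it (median log2 change -0.57, 3 at an unadjusted p below 0.05). The epithelial markers summed to 3890 to 4773 in KO and 3040 to 4843 in WT, and 0 of 7 were called with or without the block. The 7 T cell markers summed to 46.3 to 53.1 in KO against 13.9 to 26.1 in WT, with Cd3g called higher (4 higher with the block). Other markers called were Mzb1 of B and plasma cells and Cd14 of macrophages, both higher, and Prph of neurons, lower. The neuron and glia markers summed to 4.47 to 5.19 in KO against 8.30 to 11.5 in WT, and the endothelial markers to 15.1 to 27.6 in KO against 28.3 to 32.1 in WT (2 lower with the block). The Paneth sums overlapped, and 3 of 7 markers were higher with the block. The part of these differences in the lower Gsta4, Gstm1 and Gstk1 was not tested.

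The KO over WT ratio of the antibiotic couple was compared with that of the 3 untreated couples by a limma fit on the within-couple log2 ratios. None of the 10 genes passed (adjusted p below 0.05), against 1.28% higher and 0.865% lower of 11911 genes, and 5 of 10 had an unadjusted p below 0.05, against 17.6% of all genes. The antibiotic side of this test is 1 couple, so the spread comes from the 3 untreated couples alone. Here too Gsta2 passed the filter only through its antibiotic values. The most negative differences were those of Gsta3 at -1.74 (SE 0.28, 95% confidence interval -2.48 to -1.01, adjusted p = 0.0667), Gsta2 at -1.68 (SE 0.25, adjusted p = 0.0550), Gsta1 at -1.31 (SE 0.45, adjusted p = 0.246) and Gsta4 at -1.30 (SE 0.38, adjusted p = 0.199). Gstp1 was at -0.90 (SE 0.17, adjusted p = 0.0926). Gstm1 and Gstm6 had differences of 0.31 and 0.69 (adjusted p = 0.556 and 0.401), with intervals of -0.37 to 1.00 and -0.28 to 1.65. Gsta2 and Gsta3 passed with a pseudocount of 5 but not with 0.1, and Gsta3 passed without couple 2. The untreated Gsta2 values of couples 1 and 3 were below 1, so its ratios depend on the pseudocount. Its difference was -1.15 (SE 0.12) with a pseudocount of 5 and -1.89 (SE 0.42) with 0.1. With the faulty genes of the WT antibiotic column left out, neither Gsta2 nor Gsta3 passed, and 0 of all genes were called in either direction.

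The mu class genes are set side by side for their position. All 7 lie on chromosome 3, from Gstm5 at 107895821 to Gstm4 at 108044894, in the order Gstm5, Gstm7, Gstm6, Gstm3, Gstm2, Gstm1 and Gstm4. Gstm5 is on the plus strand and the other 6 on the minus strand. The 3 genes with the largest differences under antibiotics (Gstm1, Gstm3 and Gstm6) are not one run, since Gstm2 lies between Gstm3 and Gstm1. Gstm2 had 3.97 in the KO and 9.77 in the WT antibiotic library, against 3.92 to 6.59 untreated (log2 difference 0.14, adjusted p = 0.757). Gstm4 was at 0.00 and Gstm7 at 0.20. Gstm5 had 5.78 in the KO and 8.07 in the WT antibiotic library, against 11.7 to 12.2 in untreated KO and 7.52 to 8.28 in untreated WT. Without antibiotics Gstm5 was higher in KO in each couple, with a log2 change of 0.55 (SE 0.13, adjusted p = 0.0960, and 0.0184 with the block).

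**Figure D4:**
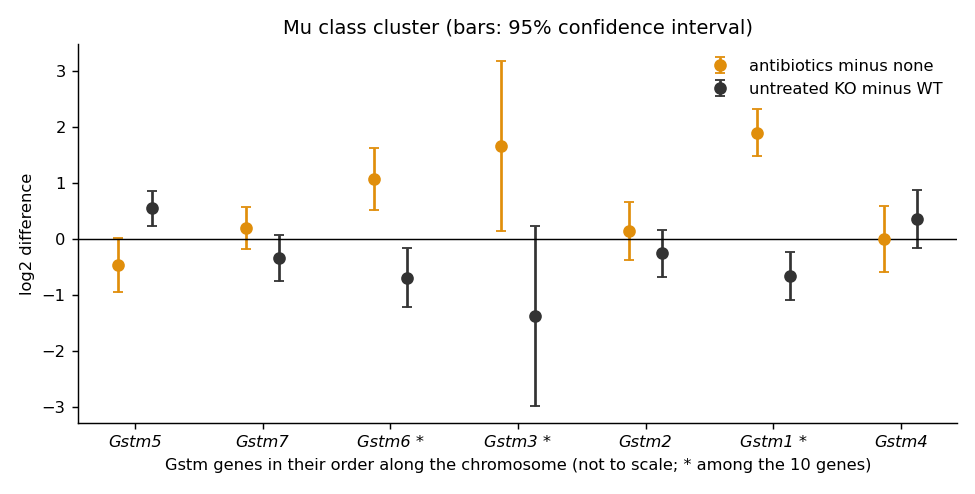
Log2 difference with 95% confidence interval for the 7 mu class genes in their order on chromosome 3, for antibiotics minus none (orange) and untreated KO minus WT (black). The spacing is not to scale, and the genes with an asterisk are among the 10 described; Gstm1 is at 1.90 and -0.66 while Gstm2 beside it is at 0.14 and -0.25.

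Among the 17 other transferases, including theta, zeta and microsomal enzymes, 15 were tested and 0 were called for genotype without the block (4 at an unadjusted p below 0.05). With the block 2 were higher (Gstm5 and Mgst1) and 2 lower (Gstt1 and Ltc4s). Gstt1, which acts on small halogenated compounds, had 7.32, 8.44 and 10.1 in untreated KO, against 15.5, 15.5 and 21.5 in WT libraries (log2 change -0.94, SE 0.19, adjusted p = 0.0602, and 0.00975 with the block). Under antibiotics 0 of 15 were called (2 at an unadjusted p below 0.05), 0 were above the untreated range and 2 (Gstt2 and Gstcd) were below it, with a median of 0.01.

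The other steps of the pathway were described from lists of their genes. Of 18 tested genes of glutathione synthesis and turnover, 1 rose in untreated KO, the glutathione reductase gene Gsr. Gsr, which returns oxidized glutathione to its reduced form, had 130, 137 and 131 in KO, against 64.6, 56.0 and 70.4 in WT libraries (log2 change 1.05, SE 0.18, adjusted p = 0.0319). Its values with antibiotics were 75.4 in KO and 81.2 in WT. With the block, by which the genes named here were chosen after their values were seen, 5 of the 18 were higher (Gclc, Gss, Gsr, G6pdx and Pgd) and 4 lower (Gclm, Slc3a2, Oplah and Dpep1). Gclc and Gclm encode the catalytic and the modifier subunit of the enzyme that starts glutathione synthesis, and they lay on opposite sides. Of 12 genes of conjugate export and mercapturate formation 0 were called without the block (2 at an unadjusted p below 0.05), and 3 (Abcc2, Nat8 and Acy3) were lower with it. Abcc2 encodes an apical pump for glutathione conjugates. Of 19 tested NRF2 target enzymes 1, again Gsr, was higher (with the block Nqo1, Gclc, Gsr, G6pdx and Pgd higher, and Gclm and Abcc2 lower). Of 18 regulators 1 was lower, Ppara, a receptor for fatty acids, with 4.89, 7.04 and 3.48 in KO against 15.0, 24.5 and 19.9 in WT (-1.78, adjusted p = 0.0191). With the block Maff was higher, and Nfe2l2, Mafk, Rxra and Ppara were lower.

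With antibiotics, 0 genes of these 4 lists were called by limma. The median log2 difference was -0.11 for synthesis and turnover (4 genes at an unadjusted p below 0.05), -0.03 for export (2 genes), 0.30 for NRF2 targets (7 genes) and 0.18 for regulators (3 genes), of 18, 12, 20 and 18 genes tested. Over all genes 19.9% had such a p. The NRF2 target enzymes Nqo1, Me1 and Ugdh were above their untreated range in both antibiotic libraries, as were the regulators Nr1i3, Cebpb and Ppara and the export gene Acy1 (3.78% of all genes). Slc1a4 and Keap1 were among the genes below theirs (17.1% of all genes). Nr1i3 encodes CAR and had 16.6 in the KO and 12.8 in the WT antibiotic library, against 3.65 to 6.96 untreated (log2 difference 1.31, adjusted p = 0.0895). These 9 are named after their values were seen. The row of Nfe2l2, the gene of NRF2, was among the faulty ones in the WT antibiotic column.

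Among the genes whose 4 within-couple log2 ratios were most like those of Gsta3, by Euclidean distance, were Mgat4c (0.213) and 2010109I03Rik (0.312). Those most like Gsta1 were Slc30a1 (0.306), 2510002D24Rik (0.369) and Fam195a (0.484). Those most like Gstm1 were Gm5617 (0.139), Vsig10 (0.140) and Acp6 (0.150). These distances are over 4 couples and are a description.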

How the data were processed

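RNA-seq was made from 8 ileum libraries, 1 per mouse. Per the series' design text, reads from an Illumina HiSeq and an Ion Proton were mapped by the authors to GRCm38.76 in CLC Genomics Workbench 7.5 with its defaults. The instrument of each library, the treatment of reads that match several genes and the scaling of the values are not stated in the labels. The deposited values carry no named unit and were taken as RPKM, because they are not whole numbers, differ in their sums between the sets and fall with gene length. The sum was the same, 351707, in each library of couples 1 and 2. Sorted values were equal (tolerance 1e-06) in the 4 libraries of couples 1 and 2, as quantile normalization leaves them. In couple 3 the sums were close, at 397021 in WT and 397082 in KO. In the antibiotic couple they were 361922 in WT and 346794 in KO. Read depth is unknown, so no counting interval was computed, and levels set across couples cross separate normalizations.

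Genes that reached 1 in 3 or more libraries of a fit were tested as log2(value + 1) by limma 3.58.1 (with a variance trend; R 4.3.3), adjusted by Benjamini-Hochberg over all genes and a threshold of 0.05: untreated KO against WT (6 libraries, no block), antibiotics against none (8 libraries, genotype as a term) and the within-couple ratios (4 couples). Tests were checked on simulated data, with noise shared between littermates only in the check of the ratios. That check cannot show what related mice do to the other fits. The labels make the numbers litters, and littermates deviated together (correlations 0.622, 0.637 and 0.508), so the couple block is a named alternative. These correlations cannot tell shared litter from the separate normalization of couple 3, which can also move both mice of a couple together. Mice are separate animals, but couples are few. The text names all 10 members, the genes of each list called without the block (at most 4 per direction), further genes chosen after their values were seen (such as those called with the block) and the 3 nearest genes of each called member, except for items that are not reported here; members and lists were chosen with earlier results of these data known. Gene positions and transcripts are from GENCODE vM21, promoters from RefSeq. Alternatives were pseudocounts of 0.1 and 5, no filter, no trend, joint quantile normalization, left-out libraries and couples, and faulty genes left out.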

Additional observations from a re-analysis of the deposited data

Results flagged for a closer look

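For 21 of the genes named, the KO over WT log2 ratio had one sign in all 3 untreated couples and the other in the antibiotic couple. Of them, 2, Gsta3 and Gstm6, are among the 10 transferases. Over all genes tested for genotype, the 3 untreated couples were all higher in 28.1% and all lower in 32.5%. How many of those turned in the antibiotic couple was not counted, so the 21 are a description. The limma test of the difference has 1 couple on the antibiotic side, so its spread comes from the 3 untreated couples alone. For Gsta3 the antibiotic couple minus the untreated couples came to -1.74 (ratio -1.31 in the antibiotic couple, and 0.65, 0.06 and 0.59 in couples 1, 2 and 3; adjusted p = 0.0667). For Gstm6 it was 0.69 (adjusted p = 0.401), with a ratio of 0.00 in the antibiotic couple, so its sign there carries no weight. Among related genes it was -2.004 for Gm10639, -0.97 for Gstm5, 0.97 for Gstt1 and 1.22 for Ltc4s, and 0 of these 4 passed. In the pathway it was -1.16 for Gsr, -1.51 for Gclc, -0.52 for G6pdx, -1.21 for Nqo1, -0.91 for Maff, 0.83 for Slc3a2, -0.36 for Slc1a4, 0.49 for Mafk and -0.21 for Keap1, none of which passed, and -1.01 for Pgd (adjusted p = 0.0458). Nat8 (1.99) and Nfe2l2 (2.96) passed, but their values in the WT antibiotic column were among the faulty ones. Of the enterocyte markers, Alpi had 0.92, Fabp1 1.81 and Apoa4 2.46, and of these 3 Apoa4 passed (adjusted p = 0.0202). With the faulty genes left out, 0 of all genes passed.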

How the results depend on the processing

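The directions of Gsta1, Gsta3 and Gstm1 under antibiotics were the same in all 14 alternatives. With no filter on low values (more low genes tested), antibiotics gave 0 of the 10 transferases, and over all genes 0 higher and 0 lower. Without 1 untreated or antibiotic library, 0 to 3 transferases, 3 to 73 genes higher and 1 to 94 lower were called. Over all genes a pseudocount of 0.1 gave 12 lower, a pseudocount of 5 gave 20 higher, joint quantile normalization 22 higher, and leaving out faulty genes 3 lower. For untreated KO against WT, no filter gave 7 genes higher and 4 lower, and the replicate block gave 984 higher and 1161 lower, with 3 transferases lower. With the block, leaving out couple 2 gave 231 higher, 243 lower and 2 transferases lower, and leaving out couple 3 gave 276 higher and 303 lower. Without 1 library or couple and with no block, 0 to 76 genes were higher and 0 to 79 lower. For the ratio difference, a pseudocount of 5 gave 2 transferases lower, no filter gave 6 genes higher and 10 lower, and leaving out faulty genes gave 0 higher and 0 lower. Without 1 couple it was 0 to 1 transferases lower, 83 to 160 genes higher and 29 to 96 lower. Signs turned for small changes: without 1 library or couple, untreated Gsta1 ran from -0.18 to 0.38 (-0.18 without couple 2 with the block too), Gstp1 from -0.18 to 0.23 and Gsto1 from -0.25 to 0.081, Gstp1 under antibiotics from -0.38 to 0.51, and the ratio differences of Gstm3 from -1.67 to 0.54 and of Gsto1 from -0.032 to 0.13. Joint quantile normalization gave -0.026 for the ratio difference of Gsto1, and -0.043 for Gstm6 and -0.99 for Gstp1 within the antibiotic couple, where a pseudocount of 5 gave -1.09 for Gsta2. The cause of these changes was not tested. Read depth is unknown, and a single treated couple limits what the antibiotic comparisons can show. Alternatives without 1 antibiotic library were added after the data were seen, and take the lone treated library to vary as the others do.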
